A study of Mus musculus with 4 samples.

Results

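Fat cells release stored triglycerides under the control of opposing receptors. Catecholamines act on beta-adrenergic receptors, which raise cAMP through the stimulatory G protein Gs and so activate protein kinase A (PKA), while alpha2A-adrenergic and adenosine A1 receptors lower cAMP through the inhibitory protein Gi. Natriuretic peptides act on a second route, in which the receptor Npr1 makes cGMP. Npr3 binds the same peptides and removes them, and it is known to blunt their effect on fat cells of mice. Pde3b breaks down cAMP in fat cells when insulin is present, and it is inhibited by cGMP.

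Of 7 genes of this control, chosen by symbol, 3 had a probe set under that symbol in the platform's probe-to-gene table, namely Npr1, Npr3 and Pde3b. Adrb1, Adrb3, Adra2a and Adora1 were not analysed here. Therefore, the balance between beta- and alpha2-adrenergic or adenosine A1 receptors was not analysed here, and the lipolytic and antilipolytic sides were compared through Npr1 and through 2 further receptor lists. The 3 genes are among 21225 probe sets, and all 3 were among the 18211 with a mean log2 level of at least 6, the minimum used for calling.

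Expression was measured in gonadal white adipose tissue (WAT) of male NMRI mice, an outbred strain. Mice of the fat diet group (FD) received food with 18% fat for 8 days from the age of 40 days, and mice of the normal diet group (ND) stayed on food with 3.3% fat. All animals were 48 days old when tissue was taken. RNA of 3 mice per diet was pooled, and each pool was hybridised to 2 Affymetrix mouse gene arrays. The arrays of a diet are thus technical duplicates of 1 pool, n is 1 pool per diet, and the diets were not tested.

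Log2 expression values from RMA (robust multi-array average) were used as deposited, and a difference is the FD mean minus the ND mean. To be called, a probe set needed a difference of at least 1.5-fold (0.58 on the log2 scale) and both arrays of one diet above both of the other. By this rule 1.33% of the probe sets were higher and 4.28% were lower in FD (242 and 780 of 18211). When arrays were scaled to the median level of adipocyte markers, 145 were higher and 1009 were lower. The median difference of all 18211 was 0.03. In whole tissue, fewer cells of a type and less RNA per cell cannot be told apart.

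Of the 3 genes, 2 (Npr1 and Npr3) matched the table of RefSeq promoter windows used here. Both are shown because these genes had differences of similar size. Each window runs from 250 bases before to 50 bases after a transcript start, 5′ to 3′ on the minus strand of GRCm38.p6. The Npr3 window lies wholly inside the annotated gene (11839896 to 11907837), downstream of its outermost start. Capitals mark the GC box (GGGCGG), the CCAAT box (CCAAT), the TATA box (TATAAA) and the core of the cAMP response element (TGACG), on either strand.

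Npr1, chr3:90465817-90466116: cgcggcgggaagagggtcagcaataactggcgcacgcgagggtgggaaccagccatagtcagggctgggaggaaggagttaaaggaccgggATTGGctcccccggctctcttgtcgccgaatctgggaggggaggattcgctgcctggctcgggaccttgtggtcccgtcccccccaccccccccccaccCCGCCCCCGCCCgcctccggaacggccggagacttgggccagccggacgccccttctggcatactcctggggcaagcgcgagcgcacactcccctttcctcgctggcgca
Npr3, chr15:11907322-11907621: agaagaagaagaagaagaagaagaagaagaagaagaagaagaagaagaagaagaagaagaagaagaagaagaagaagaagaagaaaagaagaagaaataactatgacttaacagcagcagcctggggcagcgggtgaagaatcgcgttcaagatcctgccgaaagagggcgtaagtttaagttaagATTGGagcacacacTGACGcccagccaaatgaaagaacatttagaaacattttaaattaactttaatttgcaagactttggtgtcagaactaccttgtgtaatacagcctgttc

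The windows differ in base composition, with 69.7% G and C for Npr1 and 39% for Npr3, against a median of 53% over 32544 RefSeq windows of the same length. Npr3 carries an unbroken run of AAG triplets of 81 bases near its 5′ end. Npr1 holds 2 GC boxes side by side and 1 CCAAT box, while Npr3 holds 1 CCAAT box and 1 core of the cAMP response element. These letters are common, since 35.9% of the windows hold a GC box, 37.4% a CCAAT box and 20.9% the core. TATAAA, in 13.6% of all windows, was found in neither.

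Npr1 and Npr3 were both about 1.31-fold higher in FD than in ND, short of the 1.5-fold threshold, and Pde3b did not separate the diets. Thus 0 of 3 genes were called, against a background of 1.33% higher and 4.28% lower.

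Npr1 (Entrez gene 18160), the guanylyl cyclase that binds atrial and B-type natriuretic peptides, had log2 values of 10.42 and 10.41 on the FD arrays and of 10.02 and 10.03 on the ND arrays. Both FD arrays lay above both ND arrays, and the duplicates of a diet differed by 0.01. The difference was 0.39, from means of 10.42 ± 0.01 in FD and 10.02 ± 0.01 in ND (SD of 2 arrays of 1 pool). Of all probe sets at the minimum level, 4.21% were as far or farther above ND.

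Npr3 (Entrez gene 18162), the clearance receptor without cyclase activity, had log2 values of 13.13 and 13.11 in FD and of 12.66 and 12.80 in ND. Again the diets did not overlap, with a gap of 0.31 between their nearest arrays, while the ND duplicates differed by 0.14. The difference was likewise 0.39, and 4.44% of all probe sets were as far or farther above ND. Omitting ND array 1 gave 0.32, and omitting ND array 2 gave 0.46. With a threshold of 1.3-fold in place of 1.5-fold, both receptors passed, together with 4.77% of all probe sets in this direction and 7.32% in the other.

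Pde3b (Entrez gene 18576) had log2 values of 12.32 and 12.41 in FD, against 12.35 and 12.46 in ND. The arrays of the diets overlapped, and the difference of -0.04 was smaller than the gap of 0.09 between the FD duplicates and of 0.10 between the ND duplicates. Its sign changed when arrays were centred on their medians (0.01) and without FD array 1 (0.003) or ND array 2 (0.01).

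**Figure D1:**
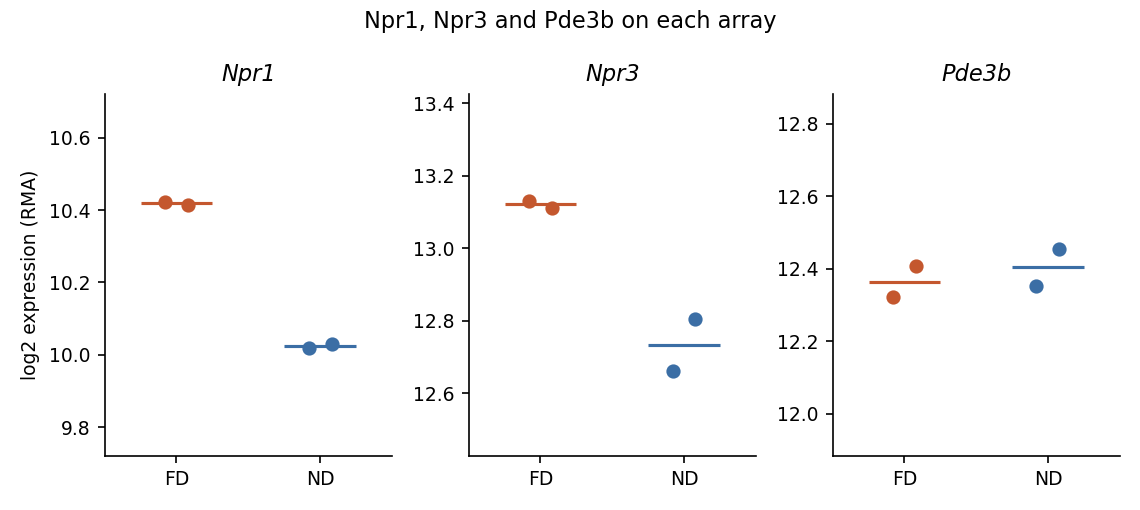
Log2 expression of Npr1, Npr3 and Pde3b on each array (points) with the mean of the 2 arrays of a diet (line), FD left of ND; each panel spans 1 log2 unit. The FD arrays lie above the ND arrays for Npr1 and Npr3, by 0.39 in the mean for each, and overlap with them for Pde3b.

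Npr1 and Npr3 were also compared within arrays, where a constant shift of an array cancels. The difference Npr1 minus Npr3 shifted between FD and ND by 0.01 on the log2 scale (0.03 with cyclic loess, an intensity-dependent normalization). Leaving out each array in turn moved this shift between -0.06, without ND array 2, and 0.07, without ND array 1, so its sign depended on the array omitted. The differences of the receptor that signals and of the one that clears the peptides were not told apart by these arrays.

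The third receptor of the family, Npr2, a guanylyl cyclase for C-type natriuretic peptide, had log2 values of 10.94 and 11.02 in FD, against 10.72 and 10.70 in ND. Its difference of 0.27 went the same way and was not called. Among the peptides and the enzymes that process them, 0 of 7 genes were called, with a median difference of -0.12. Nppa, Nppb and Nppc, which encode the peptides, had differences of 0.02, 0.00 and 0.16. Their mean levels of 7.14, 7.21 and 7.59 were under the median of every array (8.11 to 8.19). Corin, the protease that activates atrial natriuretic peptide, was at 7.50 and 7.66 in FD and at 7.98 and 7.95 in ND, a difference of -0.39. Mme, the gene of neprilysin, which degrades the peptides, was at 10.84 and 10.88 in FD and at 11.31 and 11.45 in ND, a difference of -0.52. It passed the threshold when arrays were scaled to the median level of adipocyte markers (-0.62). It stayed just short when they were scaled to the median deviation of these markers from their own means (-0.578). Furin, a proprotein convertase, had a difference of -0.22. Of the 7 genes, 4 (Corin, Mme, Furin and Ide) lay lower on both FD arrays than on both ND arrays, and 1 (Nppc) lay higher. Over all probe sets, 27.2% separated lower and 36.3% higher. Npr1, Npr2 and Npr3 lay higher.

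The antilipolytic side was read in whole tissue, without knowledge of the cells of origin, in a list of 6 further Gi-coupled receptors. This list did not include Adra2c and Adora3, given below. All 6 had higher values on both FD arrays than on both ND arrays, a separation seen in this direction in 36.3% of all probe sets and in the other in 27.2%. Their median difference was 0.43, against 0.03 over all probe sets. Of the 6, 2 were called higher, against 1.33% of all probe sets. The lists were chosen with earlier results of these data known, and a count over a list is a description of the 2 pools.

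Ptger3, the EP3 receptor through which prostaglandin E2 inhibits lipolysis, had log2 values of 10.20 and 10.25 in FD, against 8.83 and 8.98 in ND. With a difference of 1.32 (2.49-fold) it had the largest positive value of the receptors read here, and it was called under each filter, scaling and omitted array that was run with the 1.5-fold threshold. Hcar1, the lactate receptor, had 11.03 on each FD array, against 10.33 and 10.45 in ND. Its difference was 0.64, but the call was lost when arrays were scaled to adipocyte markers (0.54) and without ND array 1 (0.58). Hcar2, the receptor for beta-hydroxybutyrate and niacin, was at 8.07 and 8.06 in FD, against 7.53 and 7.69 in ND, a difference of 0.46 that was not called. The other 3, the short chain fatty acid receptor Ffar2, the succinate receptor Sucnr1 and the neuropeptide Y receptor Npy1r, had differences of 0.39, 0.38 and 0.28.

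Receptors that raise cAMP through Gs had differences in both directions. Of 9 such receptors, 1 was called higher and 0 were called lower, against 1.33% and 4.28% of all probe sets. Their median difference was 0.09, with values between -0.53 and 0.61. The called gene, Gcgr, which encodes the glucagon receptor, had log2 values of 7.54 and 7.67 in FD, against 6.96 and 7.02 in ND. Its mean level of 7.3 was under the median of every array. Its difference of 0.61 fell under the threshold with cyclic loess (0.55), when arrays were scaled to adipocyte markers (0.51), without FD array 2 (0.55) and, by a small margin, without ND array 1 (0.58). Pth1r, the parathyroid hormone receptor, had a difference of 0.48. Mc5r, a melanocortin receptor, was at 8.24 and 8.04 in FD, against 8.73 and 8.62 in ND, and its difference of -0.53 passed the threshold without FD array 1 (-0.63), without ND array 2 (-0.59) and when arrays were scaled to adipocyte markers (-0.64). Tshr, the thyrotropin receptor, and Mc2r, the corticotropin receptor, both known to drive lipolysis in fat cells of mice, had differences of -0.14 and 0.07. The median of the Gi list exceeded that of the Gs list by 0.33, and by 0.32 to 0.35 with 1 array left out. No test was made of this difference, because each diet was 1 pool.

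Of the other adrenergic and adenosine receptors, 3 were named on the array and 0 were called. Adra1b, an alpha1-adrenergic receptor coupled to calcium release, had log2 values of 8.40 and 8.39 in FD and of 8.15 and 8.14 in ND, a difference of 0.24 without overlap. Adra2c and Adora3, which also couple to Gi, had differences of 0.01 and 0.03, and their arrays overlapped between the diets. Their mean levels of 7.12 and 6.49 were under the median of every array. So were those of Hcar2 (7.84) and Npy1r (7.30), whose arrays did not overlap. Thus not every Gi-coupled receptor read here separated the diets.

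**Figure D2:**
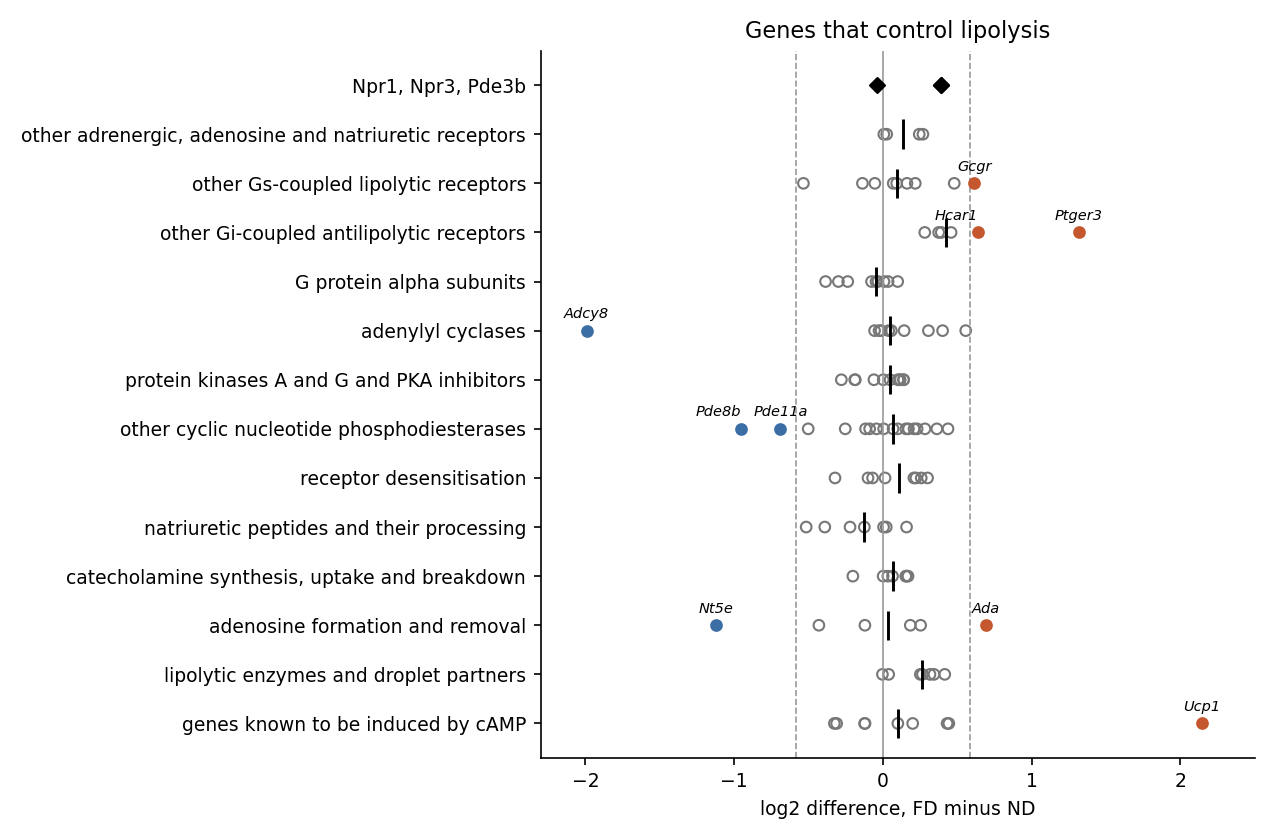
Log2 difference between FD and ND (horizontal axis) for Npr1, Npr3 and Pde3b (diamonds, top row) and for the genes of 13 lists (circles), with called genes filled and named, the median of each list as a short vertical line and the 1.5-fold threshold dashed. The 6 Gi-coupled receptors all lie right of 0, with Ptger3 at 1.32, while most genes of the other lists lie between the dashed lines.

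The receptors above and the steps after them made up 13 lists with 121 entries, of which 111 were named and 110 reached the minimum level. In all, 5 were called higher (4.55%, against 1.33% of all probe sets) and 4 lower (3.64%, against 4.28%). The 3 receptors called above are among the 5. When arrays were scaled to the median level of adipocyte markers, 3 were called higher and 7 lower. When they were scaled to the median deviation of these markers, 3 were called higher and 5 lower. Without ND array 1, 3 were called higher and 4 lower.

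None of 9 G protein alpha subunits was called. Gnas, which encodes the alpha subunit of Gs, had a difference of 0.01, and the Gi subunits Gnai1, Gnai2 and Gnai3 had differences of -0.05, 0.10 and -0.03. Gnao1, Gna11 and Gnaz had the largest differences, of -0.39, -0.30 and -0.24. Thus Gs and the Gi subunits 1 to 3 lay within 0.10 of equality between the diets.

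Of 10 adenylyl cyclases, which make cAMP, 1 was lower. Adcy8 had log2 values of 6.69 and 6.76 in FD, against 8.95 and 8.48 in ND, a difference of -1.99. Adcy4 and Adcy3 had differences of 0.56 and 0.40 and were not called, although Adcy4 passed the threshold with arrays centred on their medians (0.60), without FD array 1 (0.60) and without ND array 1 (0.62). Of 11 genes of PKA, protein kinase G and PKA inhibitors, 0 were called. Prkar2b, the regulatory PKA subunit typical of fat cells, had a difference of 0.14, and Prkg1, the cGMP-dependent kinase downstream of Npr1, had one of 0.11. The largest differences in that list were those of Pkig (-0.28), Prkg2 (-0.19) and Prkacb (-0.19).

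Among 17 other phosphodiesterases, which break down cyclic nucleotides, 2 were lower and 0 were higher, with a median difference of 0.07. Pde8b, which degrades cAMP, was at 8.21 and 8.20 in FD, against 9.17 and 9.14 in ND, a difference of -0.95. Pde11a, which degrades both cyclic nucleotides, was at 8.51 and 8.57 in FD, against 9.21 and 9.25 in ND, a difference of -0.69. Pde3a, the paralog of Pde3b, had a difference of 0.21, and Pde5a, which degrades cGMP, had one of -0.12. Pde1c, at -0.50, was past the threshold when arrays were scaled to the median level of adipocyte markers (-0.61), but not to their median deviation (-0.56). Of 8 genes of receptor desensitisation, 0 were called, and Rgs2 (-0.32), Grk3 (0.30) and Arrb2 (0.26) had the largest differences.

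Genes around the ligands of the adrenergic and adenosine receptors were read as well. Of 7 genes of catecholamine synthesis, uptake and breakdown, 0 were called, and the largest differences were those of Maob (-0.20), Slc6a2 (0.17) and Maoa (0.16). Th and Dbh, the enzymes that define noradrenergic nerves, had differences of 0.15 and 0.00. Their mean levels of 7.31 and 6.39 were under the median of every array. In adenosine metabolism, 1 of 6 genes was called higher and 1 lower. Nt5e, the ecto-nucleotidase CD73 that forms adenosine outside cells, was at 9.37 on each FD array, against 10.41 and 10.57 in ND, a difference of -1.12. Ada, adenosine deaminase, was at 8.20 and 8.12 in FD, against 7.29 and 7.64 in ND, a difference of 0.69 that fell under the threshold without ND array 1 (0.52). Adk, adenosine kinase, had a difference of -0.43 and was not called. Entpd1, the ectonucleotidase CD39 upstream of Nt5e, had one of 0.18. Of the 6 genes, 3 lay higher and 3 lower on both FD arrays, against 36.3% and 27.2% of all probe sets. The list thus had no common direction.

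Of the lipolytic enzymes and their partners on the lipid droplet, 0 of 7 were called, with a median difference of 0.27. Of these, 5 lay higher on both FD arrays than on both ND arrays, against 36.3% of all probe sets. Aqp7, the channel through which glycerol leaves fat cells, was at 12.63 and 12.60 in FD and at 12.24 and 12.16 in ND, a difference of 0.42. Plin1, the droplet coat protein perilipin-1 that PKA phosphorylates, had a difference of 0.34, G0s2, an inhibitor of ATGL, one of 0.32 and Mgll, the monoglyceride lipase, one of 0.27. Pnpla2, which encodes the triglyceride lipase ATGL, had a difference of 0.00, and Lipe, the hormone-sensitive lipase that PKA phosphorylates, was at 13.42 and 13.41 in FD and at 13.15 and 13.18 in ND, a difference of 0.25. Among 9 measured genes that cAMP is known to induce, 1 was higher, Ucp1, the uncoupling protein of brown fat cells, with log2 values of 8.57 and 8.76 in FD, against 6.57 and 6.47 in ND. Of the others, Sik1 and Fos had differences of 0.44 and 0.43, while Nr4a1, Crem and Ppargc1a had differences of -0.12, -0.33 and -0.12. Apart from Ucp1, these genes went both ways.

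The levels of Npr1 and Npr3 were set beside markers of cell types. Calls among these markers stand against 1.33% of all probe sets called higher and 4.28% called lower. All 10 named adipocyte markers were present, with values between 10.88 and 14.38, and none was called. Their median difference was 0.04, with Lep at 0.30 and Cidec at 0.28 as the largest. Scaling each array to the median level of the markers, which rests on the markers of middle rank, changed the median difference of all genes by -0.10 and gave 0.29 for Npr1, 0.28 for Npr3 and -0.14 for Pde3b. Scaling to the median deviation of the markers from their own means, chosen after seeing the data, changed it by -0.06 and gave 0.33, 0.32 and -0.10 for the same genes. The calls of Hcar1 (0.58) and Gcgr (0.55) were lost with this scaling too. Of 8 endothelial markers, all were higher on both FD arrays, against 36.3% of all probe sets. Their median difference was 0.34, and Robo4 was called (0.72), followed by Esam (0.48). Npr1 and Npr3 are known to be expressed in blood vessels too, and the summed linear level of these markers was 17500 to 17600 in FD and 13500 to 14600 in ND. Smooth muscle markers, with a median difference of -0.16 and 0 of 6 called, had Cnn1 at -0.55 and Myh11 at -0.25, and sums of 26600 to 26700 in FD and 30800 to 31500 in ND. Macrophage markers had a median of 0.36 with 1 of 8 called (Itgam, 0.64, and 0.53 when arrays were scaled to adipocyte markers), Cd68 at 0.49, and sums of 11200 to 11300 in FD and 8610 to 9530 in ND. Fibroblast markers had a median of 0.49 with 3 of 7 called higher, among them Thy1 (0.79) and Col3a1 (0.73). Pdgfra alone was lower (-0.04), and Dcn was at 0.06. The fibroblast sums were 42800 to 42900 in FD and 32900 to 34100 in ND. The part of these cell types in the differences of Npr1, Npr3 and the 6 Gi-coupled receptors was not tested.

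Markers of other tissue differed most between the pools. For comparison, 1.33% of all probe sets were called higher and 4.28% lower. Of 11 epididymal markers, 9 were lower in FD, with sums of 4830 to 5080 in FD and 45200 to 45800 in ND, and 4 were under a log2 level of 6 in FD. Adam7 and Defb22 had differences of -7.09 and -6.07. Of 7 measured liver markers, 6 were higher in FD, with Alb at 4.14 and Serpina1c at 3.02, and the sums over all 8 named ones were 20200 to 20300 in FD and 17400 to 18600 in ND. Cyp2e1, which fat tissue expresses too, was not called (-0.20) and held most of these sums. Without it, the other 7 summed to 5130 to 5400 in FD and to 786 to 831 in ND. Of 8 brown adipocyte markers, 6 were higher, with Ucp1 at 2.15 and Cidea at 1.13, and with sums of 2750 to 2780 in FD and 1380 to 1620 in ND. Mesothelial markers had a median of 0.99, with 4 of 6 higher, Msln at 1.25 and Upk1b at 1.10 among them, and sums of 9130 to 9310 in FD and 5060 to 5720 in ND. Skeletal muscle markers had a median of 0.02, with 3 of 5 above 0. Of these 5, Acta1 was called lower (-0.71), and Tnnt3 was at 0.25. Their sums were 2300 to 2440 in FD and 3180 to 3410 in ND. Acta1, at 10.46 and 10.44 in FD, against 11.08 and 11.24 in ND, had the highest level and held most of these sums. Of 4 lymphocyte markers, 1 was called (Cd79a, 0.82, with an ND mean under a log2 level of 6). Cd2 was at 0.41, while Cd3e went the other way (-0.20). The lymphocyte sums were 720 to 743 in FD and 608 to 707 in ND. None of 4 measured markers of sympathetic nerves was called, with Stmn2 at 0.32 and Snap25 at 0.18. The genes called above, Ptger3, Hcar1, Gcgr, Adcy8, Pde8b, Pde11a, Nt5e and Ada, were measured in the same pools, and the part of such tissue in their differences was not tested.

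**Figure D3:**
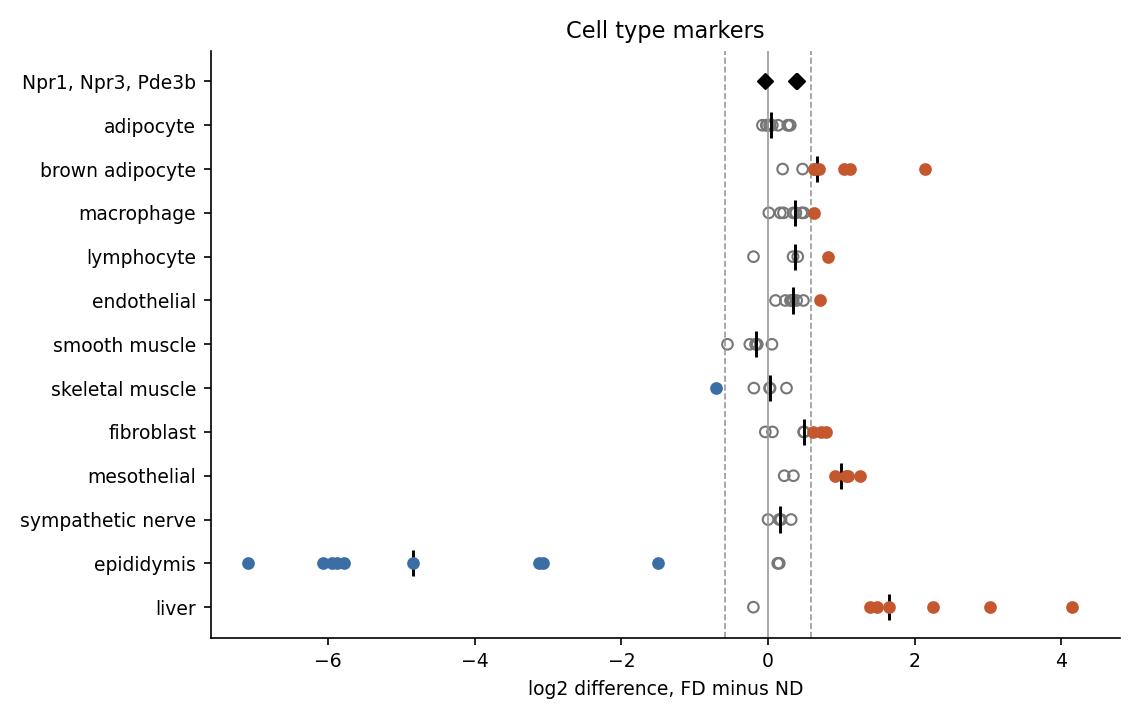
Log2 difference between FD and ND (horizontal axis) for Npr1, Npr3 and Pde3b (diamonds, top row) and for cell type markers (circles), with called genes filled, the median of each list as a short vertical line and the 1.5-fold threshold dashed. Epididymal markers reach -7.09 and liver markers 4.14, and adipocyte markers stay between -0.08 and 0.30.

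Genes with array profiles most like those of Npr1 and Pde3b were sought by the distance between log2 profiles over the 4 arrays, each centred on its own mean. Nearest to Npr1 were Tln1, Pcdha9 and Ptp4a3, at distances of 0.01 to 0.02. They were not particular, as 384 of 17366 named genes lay within 0.1. Nearest to Pde3b were Tax1bp1, Gda and Smad5, at distances of 0.003 to 0.01, and 1991 genes lay within 0.1.

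**Figure D4:**
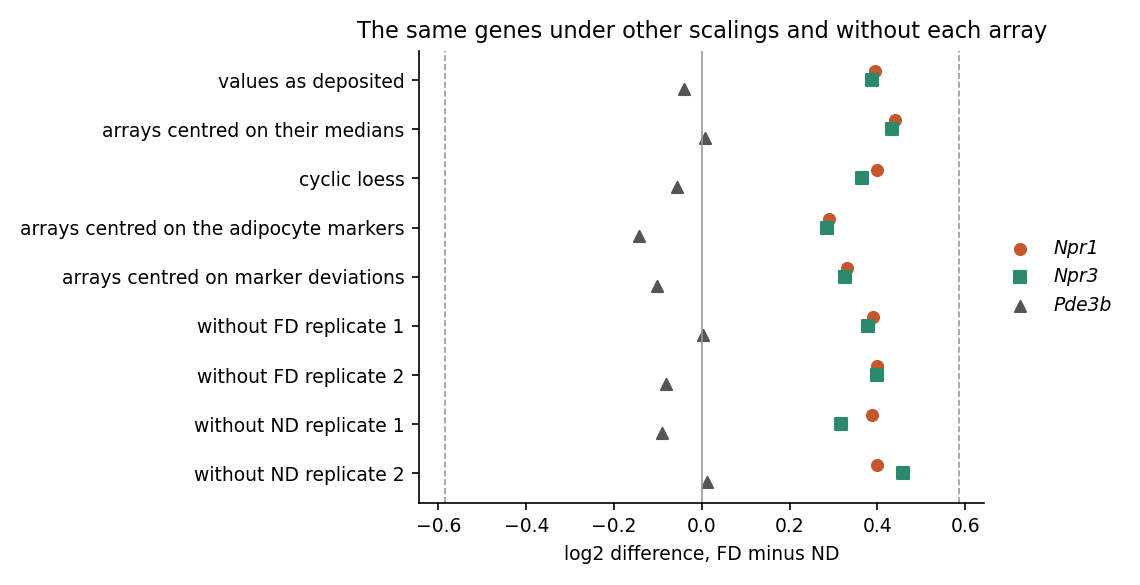
Log2 difference between FD and ND (horizontal axis) of Npr1 (circles), Npr3 (squares) and Pde3b (triangles) with the values as deposited, under 4 other scalings and without each array in turn; dashed lines mark the 1.5-fold threshold. Npr1 and Npr3 stay between 0.28 and 0.46, and Pde3b lies between -0.14 and 0.01.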

How the data were processed

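The authors deposited log2 expression values of 4 arrays, which the submitters' processing notes credit to RMA, which subtracts background, makes the arrays comparable by quantiles and summarises the probes of a set. The sources used here do not give the software or the probe set definition. Of 21225 probe sets, 20239 carry 1 gene symbol in the platform's table, with 1 probe set per gene, and 986 are unnamed here.

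The members and lists were chosen with earlier results of these data known. The mean log2 value of ND was subtracted from that of FD. A rule of size (1.5-fold, arrays apart, mean level of at least 6) stood in place of a test, since each diet was 1 RNA pool. Named were the 3 genes, of each pathway list the called genes and the 3 with the largest differences, of each marker list the 2 with the largest, and the 3 nearest profiles. Other genes named were chosen after their values were seen. Summed levels are sums of 2 to the power of the log2 value. The planned contrast of Adrb1, Adrb3 and Npr1 with Adra2a and Adora1 was not run, since only Npr1 of these was analysed. The comparisons of Npr1 with Npr3 and of the Gi with the Gs list were chosen in its place after seeing the data. Alternatives were other filters and folds, centring on array medians, on the median level of adipocyte markers or on their median deviation, cyclic loess (an intensity-dependent normalization between arrays), 1 array left out, and limma 3.58.1 in R 4.3.3. Precision is limited by 1 RNA pool per diet, since the arrays of a pool are technical duplicates. Python 3.11.15 was used for the rest.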

Additional observations from a re-analysis of the deposited data

How the results depend on the processing

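With the alternatives run, the differences of Npr1 and Npr3 stayed positive. Npr1 was at 0.44 with arrays centred on their medians at 0.33 when scaled to the median deviation of adipocyte markers, and at 0.29 when scaled to their median level, where Npr3 was at 0.28 and Pde3b at -0.14. No gene of the 3 was called under any filter, scaling or omitted array, 2 were called at 1.3-fold, and 2 (Npr1 and Npr3) passed limma at an adjusted p under 0.05. limma here compares the 2 RNA pools against the noise of the arrays, not the diets. With the replicate number as a block the count was also 2. The probe sets called higher in FD numbered 869 at 1.3-fold, 41 at 2-fold, 145 with scaling to the median level of adipocyte markers, 1676 with limma and 1483 with limma and the replicate block. Those called lower numbered 1333, 386, 1009, 1809 and 1723 under the same settings. With scaling to the median deviation of the markers, 171 were higher and 917 lower. Cnn1 passed the threshold when scaled to the markers (-0.66 by level, -0.62 by deviation) and without ND array 1 (-0.59), and so did Mc5r by deviation (-0.60). Itgam did not by deviation (0.57). Of the 13 lists, 14 genes were called higher and 10 lower at 1.3-fold, and 2 and 2 at 2-fold. The median of the Gi list exceeded that of the Gs list by 0.30 with the filter at a level of 7. The contrast of adrenergic and adenosine receptors has no value here. Precision is limited by 2 arrays of 1 pool per diet, and the spread between mice was not measured.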
